A study of Homo sapiens with 12 samples.

Results

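The 10 genes described here carry the signal of adrenocorticotropic hormone (ACTH) from the cell surface to the nucleus of adrenocortical cells. They were chosen by name: the receptor MC2R, its accessory protein MRAP, the G protein gene GNAS, the protein kinase A genes PRKACA, PRKAR1A and PRKAR2B, the phosphodiesterases PDE8A and PDE8B, and the transcription factors CREB1 and CREM. All 10 were found among the 60662 genes of the table. A test was run for the 9 of them that reached 0.5 TPM in at least 4 samples, and MRAP did not. TPM, a unit that adds up to the same total in every sample, gives the part of all transcripts that comes from a gene, corrected for its length.

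RNA-seq was performed on NCI-H295R cells, an established human adrenocortical carcinoma line that secretes cortisol and is known to answer ACTH only weakly. Confluent cultures spent 12 h without serum and then 24 h with 0.1% DMSO (VEH), 30 µM CJ28, a cortisol synthesis inhibitor under study, or 30 µM metyrapone (MET), which inhibits the enzyme of the last step of cortisol synthesis. No ACTH or cAMP-raising agent was among the treatments. Each group had 4 samples, and since no source used here says that they came from separate cultures, the p-values measure only the spread between these samples.

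ACTH binds MC2R, which needs MRAP to reach the cell surface. The bound receptor acts through Gsα, a product of GNAS, on adenylyl cyclase, and the cAMP that is made releases the catalytic subunits of protein kinase A (PKA) from its regulatory subunits. PKA phosphorylates CREB1 and its relatives, which raise transcription from promoters with a cAMP response element, and in the adrenal cortex this pathway is the main stimulus of cortisol synthesis. Phosphodiesterases of the PDE8 family end the signal by breaking down cAMP.

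The cells carried the RNA of adrenocortical cells. Of 12 adrenocortical markers, 8 had a mean of at least 1 TPM, while HSD3B2 and MC2R were lower and CYP11B1 and CYP11B2 were near 0. Of 6 chromaffin markers 1 reached a mean of 1 TPM, CHGB, with 6.22 TPM (VEH), 4.93 TPM (CJ28) and 5.78 TPM (MET), while TH was listed at 0 in all samples. No marker of endothelial cells, fibroblasts or leukocytes reached a mean of 1 TPM (4 of each were examined). Depth cannot be read from TPM. A set of 5 structural RNAs (RN7SL1, RN7SL2, RN7SK and both mitochondrial rRNAs) took 55.0 to 58.0% of the TPM of VEH samples, 59.6 to 60.9% of CJ28 samples and 55.5 to 57.5% of MET samples. The median log2 fold change of all 16815 genes tested was below 0 for CJ28 against VEH (-0.13), and moved to 0.014 after median-of-ratios scaling, which sets the typical gene to no change. Scaled values are given beside those from TPM. The share of lower genes among all calls fell from 65.1% to 47.4% with that scaling.

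Promoter windows show which of these genes carry the element that CREB1 and CREM bind. RefSeq sequences (GRCh38.p14), running from 250 bases before to 50 bases after an annotated start, were at hand for 9 of the 10 genes, in 31 windows. The full element, TGACGTCA, lay in 4 of these windows, all of CREM or PRKAR1A (2 overlapping windows of each gene, which hold the same site), and in 1.85% of all 35116 promoter windows. Its half-site, TGACG, read on both strands and contained in every full element, lay in 11 of the 31 windows, of CREM, GNAS, PRKACA and PRKAR1A, and in 24.6% of all windows. The motif of the steroidogenic factor NR5A1, AAGGTCA on either strand, was found in 2 windows, which overlap on CREM, and in 3.92% of all. The windows printed are those of the receptor, without any of these motifs, and 1 each of PRKACA, PRKAR1A and CREM, which hold the element or its half-site and were called lower with CJ28 both before and after scaling. PRKAR2B and PDE8A were also called lower both times, and their windows hold none of these motifs. A link between motif and change was not tested. Capitals mark the motif letters.
MC2R, chr18:13915658-13915957, minus strand: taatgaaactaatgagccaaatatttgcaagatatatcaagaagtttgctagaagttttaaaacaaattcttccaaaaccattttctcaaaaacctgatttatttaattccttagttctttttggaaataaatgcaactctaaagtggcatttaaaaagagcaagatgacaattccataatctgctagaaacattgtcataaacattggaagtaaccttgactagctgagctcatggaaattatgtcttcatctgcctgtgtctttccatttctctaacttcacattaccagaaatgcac
PRKACA, chr19:14117713-14118012, minus strand: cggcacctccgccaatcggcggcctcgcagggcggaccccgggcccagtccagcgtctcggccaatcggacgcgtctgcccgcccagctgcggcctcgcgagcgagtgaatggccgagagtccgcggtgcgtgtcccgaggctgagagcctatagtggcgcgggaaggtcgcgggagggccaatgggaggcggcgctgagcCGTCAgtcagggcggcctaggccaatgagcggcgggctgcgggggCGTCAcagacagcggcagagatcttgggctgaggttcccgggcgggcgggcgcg
PRKAR1A, chr17:68512180-68512479, plus strand: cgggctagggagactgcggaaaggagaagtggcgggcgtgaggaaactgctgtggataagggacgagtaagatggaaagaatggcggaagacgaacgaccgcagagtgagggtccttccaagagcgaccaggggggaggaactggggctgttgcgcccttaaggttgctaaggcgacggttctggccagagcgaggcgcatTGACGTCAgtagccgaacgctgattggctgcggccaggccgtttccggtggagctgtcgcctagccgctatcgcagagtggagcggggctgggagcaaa
CREM, chr10:35195652-35195951, plus strand: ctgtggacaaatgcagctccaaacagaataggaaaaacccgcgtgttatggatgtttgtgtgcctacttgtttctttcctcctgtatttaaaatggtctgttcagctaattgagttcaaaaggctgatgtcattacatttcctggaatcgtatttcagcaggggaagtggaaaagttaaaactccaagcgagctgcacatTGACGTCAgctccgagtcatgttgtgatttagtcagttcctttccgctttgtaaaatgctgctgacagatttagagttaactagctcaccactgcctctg
In the PRKACA window the half-sites began 49 and 4 bases before the start, and they read CGTCA because they lie on the other strand. The full element began 49 bases before the start in PRKAR1A and 50 bases before an internal start of CREM. A match of letters is a description and does not show that a factor bound there.

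The RNA levels spanned a wide range in VEH. GNAS was first with 168 ± 13.7 TPM (SD, n = 4), followed by PRKAR1A with 140 ± 6.15, CREM with 55.4 ± 1.59 and PRKAR2B with 42.1 ± 0.936. PDE8A (12.7 ± 1.08 TPM), PRKACA (7.86 ± 0.940) and CREB1 (4.06 ± 0.525) were intermediate. The receptor MC2R, at 1.05 ± 0.161 TPM, PDE8B, at 0.538 ± 0.0492, and MRAP came last. GNAS, the regulatory subunits and CREM were thus far above the receptor on this length-corrected scale. Neighbours in this order did not overlap in VEH except GNAS and PRKAR1A (exact two-sided permutation test, p = 0.0571). In CJ28 the ranges of PRKACA and CREB1 met, as did those of MC2R and PDE8B, and in MET those of PDE8B and MRAP.

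**Figure D1:**
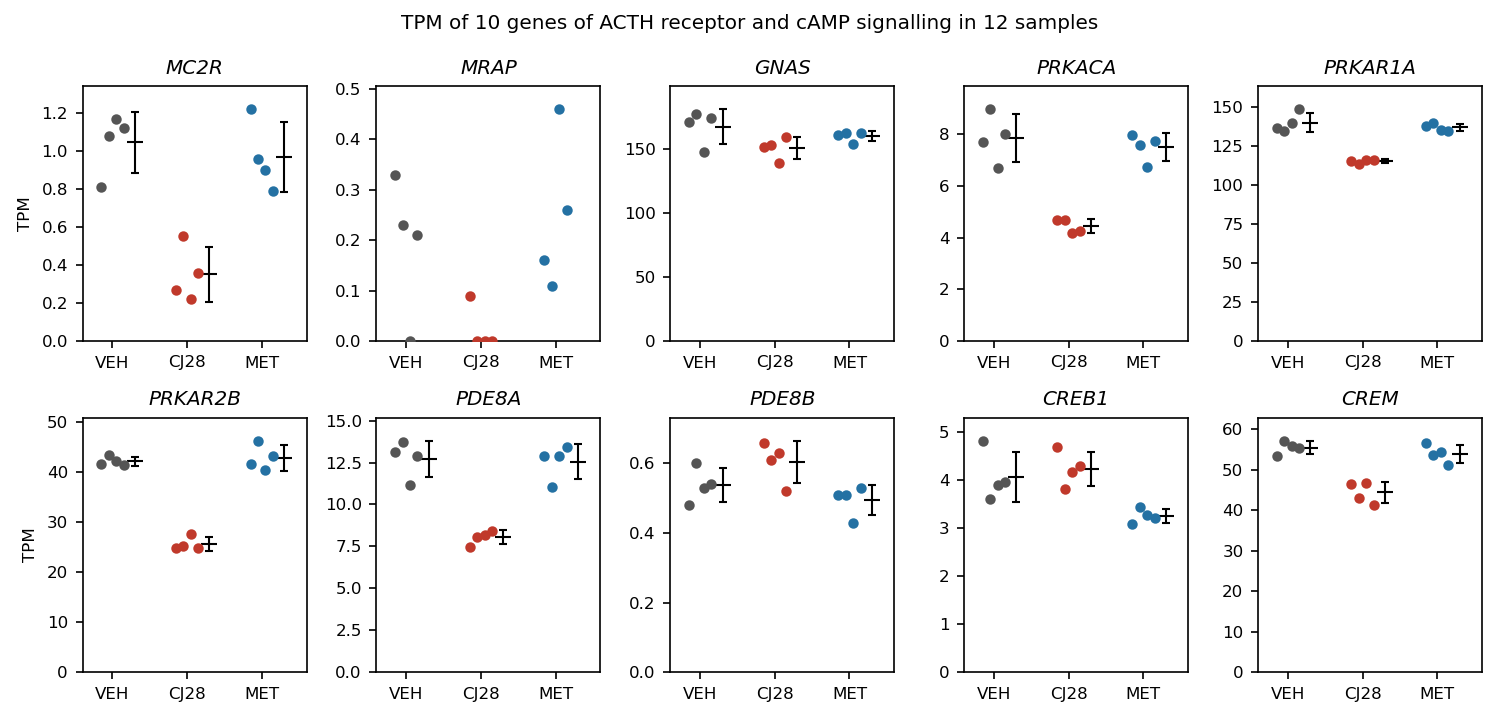
TPM of the 10 genes (vertical axes, each from 0) in the 4 samples of VEH, CJ28 and MET, with points for samples and bars for the mean ± SD, which is left out for MRAP because of values listed at 0. The CJ28 points of MC2R, PRKACA, PRKAR1A, PRKAR2B, PDE8A and CREM lie below all VEH points, and those of GNAS, PDE8B and CREB1 overlap them.

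With CJ28, most of the chosen genes that could be tested were lower. In the comparison with VEH, which asks what this inhibitor does to the transcriptome, 7 of the 9 genes tested were called, all lower: MC2R, GNAS, PRKACA, PRKAR1A, PRKAR2B, PDE8A and CREM. Calls were made at an adjusted p under 0.05 (limma, Benjamini-Hochberg over all genes tested). In the same comparison 57% of all genes tested were called, 37.1% lower and 19.9% higher, so a call alone does not set these genes apart. Their median log2 fold change was -0.32, against -0.13 for all genes, and -0.17 against 0.014 after scaling, when 6 of the 9 were still called lower, without GNAS, and 26.3% of all genes were. In 6 of the 9 the CJ28 and VEH samples did not overlap, all lower in CJ28, as in 50.3% of all genes tested (32.7% lower). The comparisons with VEH and with MET share the CJ28 samples and are not independent of each other.

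At the receptor, the VEH samples had 0.81, 1.08, 1.17 and 1.12 TPM of MC2R, the CJ28 samples 0.27, 0.55, 0.22 and 0.36, and the MET samples 1.22, 0.96, 0.90 and 0.79. Each CJ28 sample was below each sample of both other groups. MC2R passed the filter on low values through its VEH and MET samples and 1 CJ28 sample. The log2 fold change of CJ28 against VEH was -1.39 (SE 0.22, adjusted p = 1.63e-04), 2.62-fold lower on the log2(TPM + 0.1) scale, and -1.26 after scaling. The size depended on the value added before the logarithm: it was -0.60 with 1 in place of 0.1 and -1.62 with 0.01, past the threshold each time. In a bulk sample, fewer cells that make an RNA and less RNA per cell cannot be told apart. The summed TPM of the 12 adrenocortical markers, MC2R included, moved alongside, from 427 to 449 in VEH to 263 to 323 in CJ28, and was 415 to 429 in MET. The markers did not all move one way, since SCARB1 averaged 142 TPM in VEH and 164 in CJ28, and NR0B1 2.94 and 5.81. Their part in the result was not tested.

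MRAP was scarce throughout. Its values were 0.33, 0.23, 0 and 0.21 TPM in VEH, 0.09, 0, 0 and 0 in CJ28, and 0.16, 0.11, 0.46 and 0.26 in MET. Thus it was listed at 0 in 3 of the 4 CJ28 samples and in 1 VEH sample. CJ28 lay below every MET sample (exact two-sided permutation test, p = 0.0286, and no comparison of 4 with 4 samples can give a smaller one) but overlapped VEH (p = 0.143 in the same exact test). Fitted without the filter on low values, MRAP gave an adjusted p of 0.037 for CJ28 against MET and of 0.104 for CJ28 against VEH. MRAP overlaps URB1, a gene on the opposite strand with a mean of 3.74 TPM. The libraries kept strand, but how the reads were assigned by strand is not given in the sources used here.

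Among the other melanocortin receptors and accessory proteins only MC1R passed the filter. The remaining 4 (MC3R, MC4R, MC5R and MRAP2) did not. MC1R, the receptor of pigment cells, averaged 3.09 TPM for VEH, 3.36 for CJ28 and 3.27 for MET. It was not called for CJ28 against VEH (log2 fold change 0.12, adjusted p = 0.281), although it was called higher after scaling (0.27). On the length-corrected TPM scale the level of MC1R was above that of MC2R in all 12 samples.

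GNAS encodes Gsα, the G protein subunit that stimulates adenylyl cyclase. It had 171, 178, 148 and 174 TPM in VEH, 152, 153, 140 and 159 in CJ28, and 161, 163, 154 and 163 in MET. The CJ28 samples overlapped the VEH samples. The log2 fold change of CJ28 against VEH was -0.15 (SE 0.057, adjusted p = 0.0398), close to the median of all genes, and 0.0032 after scaling (adjusted p = 0.960). The call was also lost in 7 of the 12 fits that left out a sample, those without VEH-1, VEH-2, VEH-4, CJ28-1, CJ28-2, CJ28-3 or MET-1 (adjusted p from 0.0504 to 0.118). The locus gives rise to several transcripts besides that of Gsα, and the gene's TPM merges them.

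Of the 12 other G protein subunits and regulators listed, all 12 were tested, 3 were higher and 8 lower with CJ28, and 3 and 4 after scaling. Beside them stand 19.9% higher and 37.1% lower of all genes tested, and 29.3% and 26.3% after scaling. Their median log2 fold change was -0.25, against -0.13 for all genes. The inhibitory α subunits did not move one way: GNAI3 fell from 13.7 to 7.62 TPM (log2 fold change -0.84) and GNAI2 from 78.9 to 49.2 TPM (-0.68), while GNAI1 rose from 15.0 to 24.5 TPM (0.70). GNAL, the closest relative of GNAS, fell from 3.02 to 1.67 TPM (-0.83). Each of these 4 kept its direction and call after scaling. GNAQ (0.13) and GNG12 (0.26) were the other two that were higher.

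Receptor desensitisation genes, which encode the kinases and adaptors that switch off and internalise receptors, were tested for 6 of 7. With CJ28, 2 were higher and 2 lower, beside 19.9% and 37.1% of all genes tested. After scaling 3 were higher and 2 lower, beside 29.3% and 26.3% of all genes. GRK2 rose from 7.13 to 8.64 TPM (log2 fold change 0.27) and GRK3 from 1.21 to 1.55 TPM (0.33), and both kinases phosphorylate active receptors. The count of 2 higher became 1 without VEH-1, VEH-4 or CJ28-3. NHERF1, a scaffold protein, fell from 2.35 to 1.15 TPM (-0.99). The β-arrestin gene ARRB1, named after its values were seen, fell from 0.808 to 0.253 TPM (-1.36). It passed the filter on low values through its VEH and MET samples alone.

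Adenylyl cyclases, which make cAMP, were above the filter for 3 of 10 genes. ADCY6 rose with CJ28 from 11.8 to 19.5 TPM (log2 fold change 0.71, SE 0.061, adjusted p = 6.54e-07). Its VEH samples had 10.98 to 12.48 TPM and its CJ28 samples 18.25 to 21.53, so the groups lay well apart. ADCY9 rose from 1.87 to 3.35 TPM (0.80), and ADCY3 fell from 8.14 to 5.66 TPM (-0.54) with overlapping samples. The direction of all 3 held after scaling.

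PRKACA encodes a catalytic subunit of PKA. It had 7.71, 8.98, 6.70 and 8.03 TPM in VEH, 4.70, 4.70, 4.19 and 4.26 in CJ28, and 7.98, 7.60, 6.74 and 7.74 in MET. The CJ28 samples lay below all others. The log2 fold change of CJ28 against VEH was -0.80 (SE 0.085, adjusted p = 5.48e-06) and -0.65 after scaling.

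PRKAR2B, the regulatory subunit of type II kinase that is prominent in endocrine tissue and fat, had 41.5, 43.5, 42.1 and 41.4 TPM in VEH, 24.8, 25.3, 27.6 and 24.9 in CJ28, and 41.5, 46.3, 40.4 and 43.2 in MET. No CJ28 sample came near the others. The log2 fold change was -0.72 (SE 0.048, adjusted p = 6.42e-08, the smallest among the 9 genes) and -0.56 after scaling. PRKAR1A, the type I subunit whose loss causes Carney complex with adrenal hyperplasia, had 137, 135, 140 and 149 TPM in VEH, 116, 114, 116 and 116 in CJ28, and 138, 140, 136 and 135 in MET. It fell by 0.28 on the log2 scale (SE 0.031, adjusted p = 8.67e-06) with CJ28. After scaling the change was -0.13 (adjusted p = 0.0079) and the samples of CJ28 and VEH overlapped.

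The other PKA genes listed were 8, of which 6 were tested, and 2 were higher and 2 lower with CJ28 (3 and 1 after scaling). Of all genes tested, 19.9% were higher and 37.1% lower (29.3% and 26.3% after scaling). PRKACB, the second catalytic subunit, had 8.39 TPM in VEH and 8.75 TPM in CJ28 and was not called (log2 fold change 0.063, adjusted p = 0.317), though it was called higher after scaling (0.21). PKIA, a peptide inhibitor of the catalytic subunits, rose from 8.58 to 14.9 TPM (0.79), and PKIG, another inhibitor, from 12.1 to 13.9 TPM (0.20). PRKAR1B fell from 6.18 to 4.60 TPM (-0.42) and PRKAR2A from 13.3 to 11.4 TPM (-0.22), but PRKAR2A was not called after scaling.

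Shares within a sample do not depend on how much of TPM the structural RNAs take. PRKACA made up 48.9, 49.2, 45.8 and 49.2% of the summed TPM of PRKACA and PRKACB in VEH, 35.0, 35.3, 31.6 and 33.2% in CJ28, and 49.1, 48.3, 44.5 and 48.9% in MET. The mean was 48.3% in VEH and 33.8% in CJ28. PRKAR2B made up 20.9% (VEH), 16.3% (CJ28) and 21.5% (MET) of regulatory subunit TPM. The share of PRKAR1A was 69.5% (VEH), 73.5% (CJ28) and 68.9% (MET). These 3 shares did not overlap between CJ28 and VEH (exact two-sided permutation test, p = 0.0286 each, adjusted p = 0.0571 over the 18 tests of 6 measures in 3 comparisons). In all, 0 of the 18 tests passed the adjusted threshold. No comparison of 4 with 4 samples can give a p under 0.0286 in this exact permutation test. The adjusted p of a test at that floor falls only as more of the 18 tests reach it. With all samples it was 0.0571 even for shares without any overlap, so missing the threshold says little about them. Without VEH-2, 5 of the 6 measures passed for CJ28 against VEH, 1 for MET against VEH and 5 for CJ28 against MET (adjusted p = 0.0468, exact permutation tests). CJ28 against MET holds no VEH sample, and its differences were unchanged without VEH-2. Those passes came only through the adjustment over all tests.

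The ratio of summed regulatory to summed catalytic TPM was 12.5 ± 1.24 in VEH (SD, n = 4), 11.9 ± 0.376 in CJ28 and 12.7 ± 0.400 in MET. It overlapped between CJ28 and VEH (exact permutation test, p = 0.400). The summed regulatory TPM was 202 in VEH and 157 in CJ28, and the summed catalytic TPM 16.2 and 13.2, so both sums were lower with CJ28. PRKACA, PRKAR2B and PRKAR1A were lower by unequal proportions, and PRKACB was not called.

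**Figure D2:**
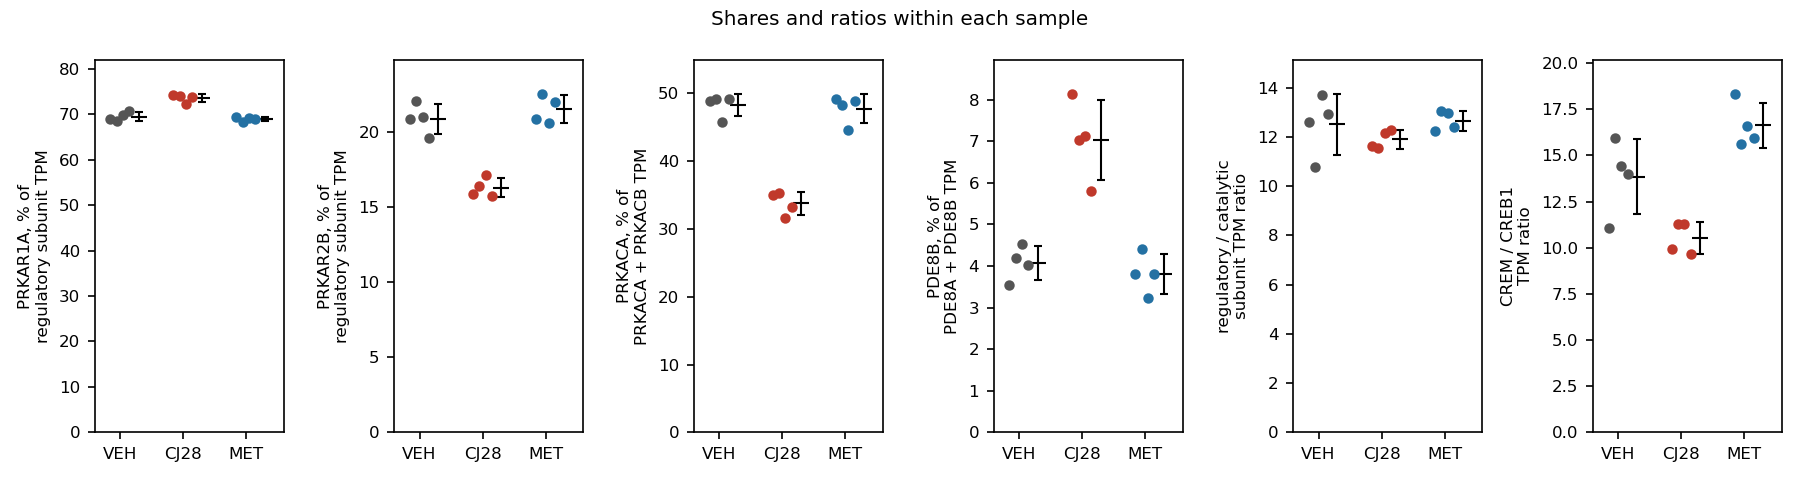
Within-sample shares (percent) and ratios of TPM on vertical axes from 0, with points for the 4 samples of VEH, CJ28 and MET and bars for the mean ± SD. PRKACA is at a mean of 48.3% of catalytic TPM in VEH and 33.8% in CJ28, PDE8B is at 4.07% and 7.02% of PDE8 TPM, while the ratio of regulatory to catalytic subunits overlaps between groups.

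A-kinase anchoring proteins tie PKA to its sites in the cell. Of 16 listed, 14 were tested, 1 was higher and 5 were lower with CJ28, and 6 and 3 after scaling, so the balance of this list turned with the scaling. The shares over all genes tested turned too, from 19.9% higher and 37.1% lower to 29.3% and 26.3%. AKAP7 fell from 32.2 to 17.3 TPM (log2 fold change -0.89), AKAP12 from 5.68 to 3.13 TPM (-0.84) and AKAP5 from 1.36 to 0.960 TPM (-0.47), all held after scaling. AKAP1 fell by 0.21, and AKAP13 fell from 19.2 to 16.1 TPM (-0.26), and neither was called after scaling. AKAP2, named after its values were seen, was the one that rose, from 0.703 to 1.28 TPM (0.79). Its entry has the symbol PALM2AKAP2, and the TPM is that of the whole entry.

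Both PDE8 genes encode enzymes that break down cAMP at low concentrations. PDE8A had 13.1, 13.7, 11.2 and 12.9 TPM in VEH, 7.45, 8.08, 8.21 and 8.45 in CJ28, and 12.9, 11.1, 12.9 and 13.4 in MET. The CJ28 samples lay below all others, with a log2 fold change against VEH of -0.65 (SE 0.074, adjusted p = 9.28e-06) and of -0.50 after scaling. PDE8B had 0.48, 0.60, 0.53 and 0.54 TPM in VEH, 0.66, 0.61, 0.63 and 0.52 in CJ28, and 0.51, 0.51, 0.43 and 0.53 in MET. It was not called, with a log2 fold change of 0.14 and a 95% interval from -0.17 to 0.46 (adjusted p = 0.419), and the groups overlapped. PDE8B overlaps WDR41 on the opposite strand, which had a mean of 20.9 TPM, far above its own.

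PDE8B took 3.53, 4.19, 4.53 and 4.02% of the TPM of both PDE8 genes in VEH, 8.14, 7.02, 7.13 and 5.80% in CJ28, and 3.81, 4.41, 3.23 and 3.8% in MET. The share was higher in each CJ28 sample than in each other sample (exact permutation test, p = 0.0286 against VEH, adjusted p = 0.0571), which did not pass the adjusted threshold. No share test with all samples gave a smaller value of either.

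Other phosphodiesterases act on cAMP, cGMP or both. Of 14 listed, 7 were tested, 0 were higher and 6 lower with CJ28, and 0 and 5 after scaling, with a median log2 fold change of -0.59. Among all genes tested 37.1% were lower and 19.9% higher, and 26.3% and 29.3% after scaling. PDE2A, which is stimulated by cGMP and abundant in the adrenal cortex, had 57.4, 64.0, 54.9 and 56.8 TPM in VEH, 16.02, 16.63, 15.06 and 15.99 in CJ28, and 49.9, 52.6, 53.2 and 52.5 in MET. It was the phosphodiesterase with the highest level in VEH among those named here. Its log2 fold change with CJ28 was -1.86 (SE 0.048, adjusted p = 1.39e-11), and -1.71 after scaling. PDE7B fell from 5.44 to 2.79 TPM (-0.94), PDE7A from 5.67 to 3.72 TPM (-0.59) and PDE10A from 11.6 to 8.17 TPM (-0.49). PDE11A, known for its link to adrenal hyperplasia and named after its values were seen, fell from 0.798 to 0.235 TPM (-1.37). It passed the filter through VEH and MET samples alone. A further entry of PDE11A, with a lower TPM, was not used. PDE4D fell by 0.13, a call that scaling removed.

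The transcription factor CREM had 53.3, 57.2, 55.9 and 55.3 TPM in VEH, 46.4, 43.0, 46.8 and 41.4 in CJ28, and 56.5, 53.7, 54.3 and 51.2 in MET. Its samples did not overlap between CJ28 and VEH. It fell with CJ28 by 0.32 on the log2 scale (SE 0.045, adjusted p = 5.90e-05), and the change was -0.17 after scaling (adjusted p = 0.0135). CREM gives activators and, from an internal start, the repressor ICER, which its gene-level TPM merges.

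CREB1, the classic PKA target, had 4.81, 3.59, 3.88 and 3.95 TPM in VEH, 4.67, 3.8, 4.15 and 4.28 in CJ28, and 3.08, 3.44, 3.27 and 3.21 in MET. CJ28 and VEH overlapped, with a log2 fold change of 0.061 and a 95% interval from -0.13 to 0.26 (adjusted p = 0.583). The ratio of CREM to CREB1 was 13.9 ± 2.02 in VEH (SD, n = 4), 10.5 ± 0.867 in CJ28 and 16.6 ± 1.21 in MET. CJ28 lay below MET without overlap (exact permutation test, p = 0.0286, adjusted p = 0.0571) and overlapped VEH (p = 0.0857 in the same exact test).

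Other CREB family members, coactivators and salt-inducible kinases numbered 13, all tested, with 2 higher and 7 lower for CJ28, and 3 and 5 after scaling. The shares over all genes tested were 19.9% higher and 37.1% lower, and 29.3% and 26.3% after scaling. CREB5 rose from 0.673 to 1.69 TPM (log2 fold change 1.22) and CREB3 from 35.0 to 47.1 TPM (0.43). SIK1, a kinase that holds CREB coactivators in the cytoplasm, fell from 2.44 to 1.28 TPM (-0.91), the coactivator CRTC1 from 1.29 to 0.775 TPM (-0.67), and PPP1CA, a catalytic subunit of the phosphatase that acts on CREB, from 38.0 to 24.8 TPM (-0.61). Each of these 5 kept its call after scaling. Of 8 cAMP effectors outside PKA, 4 were tested, 1 was higher and 1 lower (2 and 1 after scaling): RAPGEF2 rose from 5.10 to 7.47 TPM (0.54) and RAP1B fell from 124 to 100.4 TPM (-0.31).

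Immediate cAMP-responsive genes, which are transcribed soon after cAMP rises, moved in both directions. Of 12 listed, 11 were tested, 4 were higher and 2 lower with CJ28, also after scaling, with a median log2 fold change of -0.041 against -0.13 for all genes. Over all genes tested 19.9% were higher and 37.1% lower, and 29.3% and 26.3% after scaling. ATF3, a stress- and cAMP-inducible factor, had 2.43, 2.56, 1.87 and 2.40 TPM in VEH, 9.58, 8.57, 6.46 and 6.79 in CJ28, and 2.28, 2.17, 2.04 and 3.05 in MET. Its log2 fold change was 1.71 (SE 0.15, adjusted p = 9.82e-07). PPARGC1A rose from 1.35 to 3.64 TPM (1.37). The orphan nuclear receptors went apart: NR4A1 rose from 22.2 to 43.2 TPM (0.95) and NR4A3 fell from 9.38 to 4.83 TPM (-0.94). DUSP1 (0.36) was the remaining gene that rose and RGS16 (-0.71) the other that fell. RGS16 was scarce, with 0.68 to 0.82 TPM in VEH and 0.36 to 0.50 in CJ28. It passed the filter on low values through its VEH and MET samples and CJ28-4. Many of these genes also answer other stimuli.

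Over the 10 lists, 77 of 105 genes were tested for CJ28 against VEH, and 17 were higher and 34 lower, beside 19.9% and 37.1% of all genes tested. After scaling 27 were higher and 24 lower, so the surplus of lower genes did not hold under that scaling. Among all genes tested, scaling likewise moved the shares called higher and lower to 29.3% and 26.3%.

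**Figure D3:**
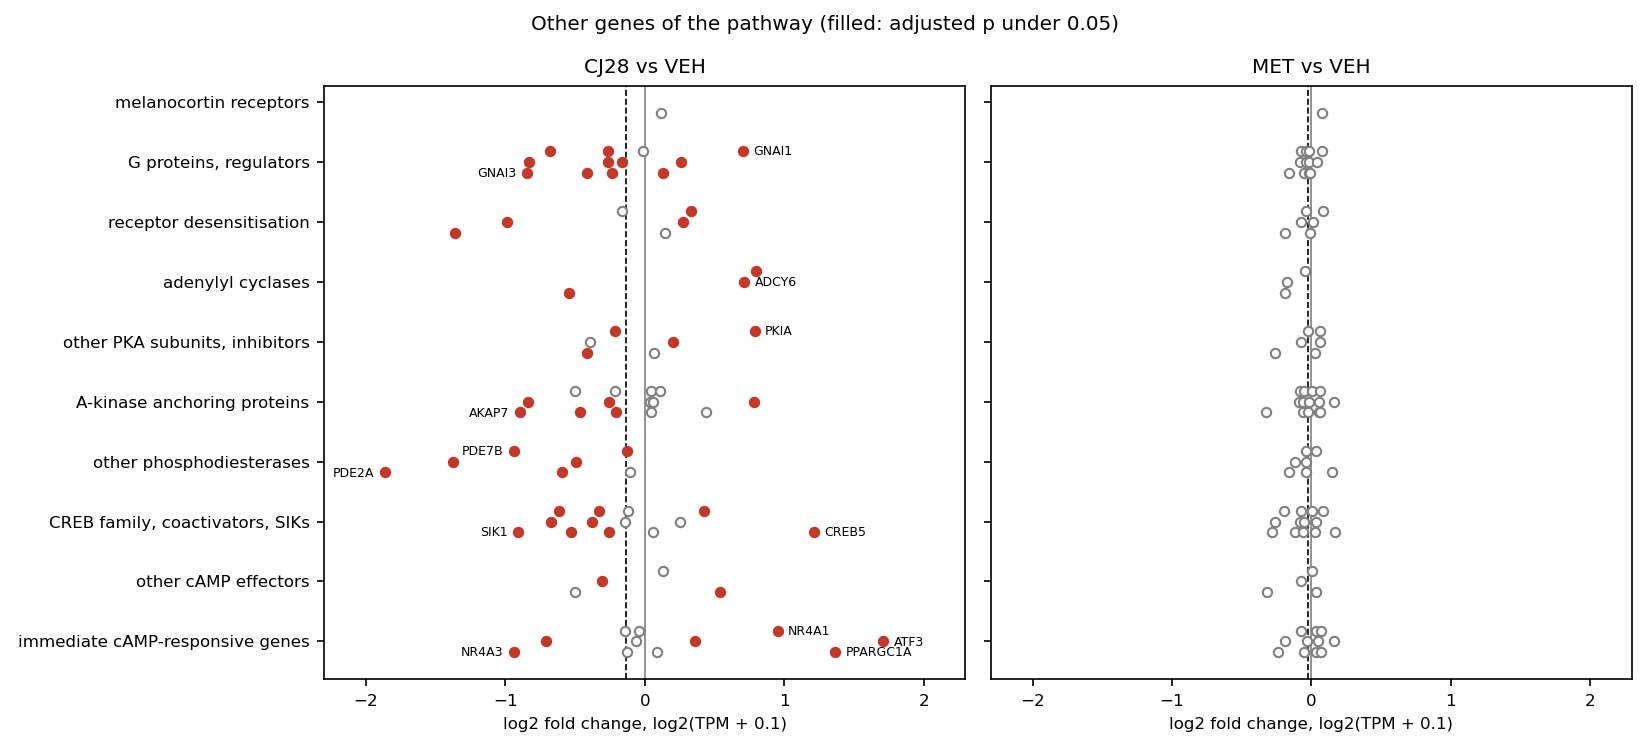
Log2 fold changes on the log2(TPM + 0.1) scale (horizontal axis) of the 77 tested genes in 10 lists (rows) for CJ28 against VEH and MET against VEH, with filled points at an adjusted p under 0.05 and a dashed line at the median of all genes. The CJ28 points spread from PDE2A at -1.86 to ATF3 at 1.71, with 17 higher and 34 lower calls, and no MET point is filled.

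MET left the pathway close to VEH. Of the 9 genes tested, 0 were called (limma), against 0.00595% of all genes tested, and 1 of the 9 had an unadjusted p under 0.05, against 5.2% of all genes. That gene was CREB1, with a log2 fold change of -0.30 (SE 0.09, unadjusted p = 0.0052, adjusted p = 0.904). All 4 MET samples of CREB1 were below all 4 VEH samples (exact permutation test, p = 0.0286), and 2.81% of all genes tested showed no overlap (2.03% with MET lower). The difference thus did not pass the correction. For the other 8 genes the log2 fold changes lay between -0.10 and 0.022. Intervals were narrow for abundant genes and wide for MC2R: the 95% interval ran from -0.099 to 0.038 for PRKAR1A and from -0.59 to 0.38 for MC2R. In the 10 lists 0 of 77 genes were called and 5 had an unadjusted p under 0.05. These were PDE4D (log2 fold change 0.14), PDE2A (-0.16), PRKAR1B (-0.26), ADCY6 (-0.18) and CREB3 (0.084).

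The direct comparison of both inhibitors, at the same dose and time, tests where they differ. For CJ28 against MET, 7 of the 9 genes were called, 6 lower and 1 higher, against 55.5% of all genes tested (34.6% lower, 20.9% higher). The same 7 did not overlap between the groups, as 50.2% of all genes tested did not (31.3% lower, 18.9% higher). The log2 fold change was -1.28 for MC2R (SE 0.22, adjusted p = 3.11e-04), -0.74 for PRKACA and PRKAR2B, -0.63 for PDE8A, -0.28 for CREM and -0.25 for PRKAR1A, and all were called after scaling too, when 26.1% of all genes were called lower and 28.7% higher. CREB1 was higher with CJ28 than with MET, by 0.37 (SE 0.09, adjusted p = 0.0039) and by 0.48 after scaling. GNAS (-0.088, 95% interval from -0.21 to 0.036) and PDE8B (0.24, from -0.071 to 0.56) were not called.

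**Figure D4:**
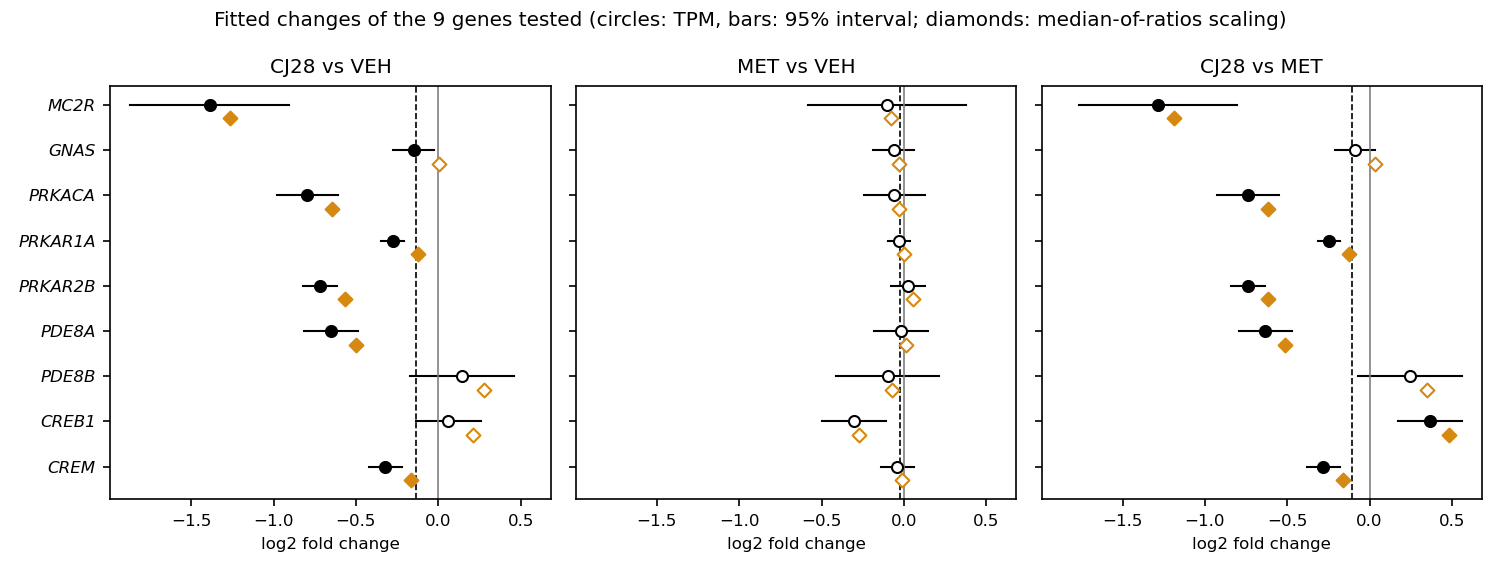
Log2 fold changes (horizontal axes) of the 9 genes tested in the 3 comparisons, as circles with 95% intervals from log2(TPM + 0.1) and as diamonds after median-of-ratios scaling, with filled symbols at an adjusted p under 0.05 and a dashed line at the median of all genes. MC2R lies farthest to the left in both comparisons of CJ28, at -1.39 and -1.28, GNAS moves to 0.0032 with scaling in the first, and no symbol is filled for MET against VEH.

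Genes with a pattern like that of MC2R were sought among 13306 genes with a mean of at least 1 TPM, by the root mean square difference of centred log2(TPM + 0.1) over the 12 samples. The closest were ESCO2 (0.19), which acts in sister chromatid cohesion, the long noncoding RNA AC060766.7 (0.20), STS, the steroid sulfatase (0.21), and the noncoding RNAs AL035461.3 (0.22) and SIAH2-AS1 (0.22). ESCO2 was at 7.21 TPM (VEH), 2.22 TPM (CJ28) and 6.59 TPM (MET). For PDE8B, which had the largest positive log2 fold change among the 9 genes for CJ28 against VEH, though it was not called, close genes were STX12 (0.059), ADAT1 (0.062), MITD1 (0.067) and MRPS30 (0.067). STX12 was at 9.37 TPM (VEH), 10.2 TPM (CJ28) and 8.80 TPM (MET).

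By position, the genes lie on 10 chromosomes (GRCh38, as the deposited table gives them). On the minus strand are MC2R at chr18:13882044-13915707 and PRKACA at chr19:14091688-14118084. On the plus strand are MRAP at chr21:32291813-32314784, GNAS at chr20:58839718-58911192, PRKAR1A at chr17:68511780-68551319 and PRKAR2B at chr7:107044705-107161811, as well as PDE8A at chr15:84980440-85139145, PDE8B at chr5:77210449-77429807, CREB1 at chr2:207529737-207605988 and CREM at chr10:35126791-35212958. MC2R, PRKACA and PDE8A overlap no other gene of the table. GNAS overlaps 7 genes, CREM 4, PDE8B 3, MRAP, PRKAR1A and CREB1 2 each, and PRKAR2B 1, and of these partners only WDR41, URB1, METTL21A (1.67 TPM), AL117336.1 (1.67 TPM), AL121917.1 (1.22 TPM) and AC006387.1 (1.00 TPM) had a mean of at least 1 TPM. For PRKAR2B, GNAS, CREM and CREB1 the partner's level was below that of the gene itself.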

How the data were processed

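The 12 samples were grouped by their labels into VEH, CJ28 and MET, 4 each. Total RNA was depleted of ribosomal RNA and made into stranded libraries. The authors trimmed reads with Cutadapt (2.8), aligned them to GRCh38 with STAR (2.7.10b) and deposited TPM from RSEM (1.3.3), which divides reads shared by several genes, and the annotation release is not given in the sources used here. TPM keeps no depth, so no counting error was computed, and the study's own test on counts was replaced by a test on TPM.

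Here log2(TPM + 0.1) was fitted with limma (3.58.1, R 4.3.3; lmFit, eBayes with trend) over the 16815 genes that reached 0.5 TPM in 4 or more samples. The fit took all samples at once and had no covariate. Two-sided p-values were adjusted by the Benjamini-Hochberg method over all genes tested, with calls at 0.05. Single genes and 6 within-sample shares or ratios were compared by exact permutation tests (Python 3.11.15, numpy 2.4.6, scipy 1.17.1, pandas 2.3.3), and plots were drawn with matplotlib 3.10.9. The procedure was tested on simulated data. No samples had identical values (0 pairs).

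Named are the 10 genes, the markers, the structural RNAs, up to 4 genes per list by size of change among those called for CJ28 against VEH with a mean of at least 1 TPM, and the 5 genes nearest in pattern to MC2R and PDE8B, of which some items are not reported here. ARRB1, PDE11A, PDE4D, AKAP1, AKAP2, GNAQ, GNG12, CREB3, DUSP1, RGS16, PRKACB and MC1R fall outside this rule and were named after their values were seen. The genes, lists and tests were chosen with earlier results of these data known. Alternatives were pseudocounts of 1 and 0.01, no filter, a mean of at least 1 TPM, median-of-ratios scaling, TPM without 5 structural RNAs, a fit of each comparison's own samples, a block for replicate number, log2 shares, and leaving out each sample.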

Additional observations from a re-analysis of the deposited data

Results flagged for a closer look

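Of 48 groups of 4 samples checked (the levels of the 10 genes and the 6 shares or ratios in each group), 2 held a sample far from the other 3, and chance alone gives about 1 in 20. MRAP was at 0.09 TPM in CJ28-1 and listed at 0 in the other 3 CJ28 samples. PRKACA made up 45.8% of the summed TPM of PRKACA and PRKACB in VEH-3, below the 48.9 to 49.2% of the other VEH samples. It was above every CJ28 sample, the highest of which was 35.3%. The samples of the same number were also the lowest of their groups. CJ28-3 had 31.6%, beside 33.2 to 35.3% in the other CJ28 samples. MET-3 had 44.5%, beside 48.3 to 49.1% in the other MET samples. Without VEH-3 the difference of CJ28 from VEH in this share was -15.3 percentage points, against -14.5 with it.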

How the results depend on the processing

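The number of the 9 genes called lay between 6 and 7 for CJ28 against VEH and at 0 for MET against VEH over all alternatives. For CJ28 against MET it lay between 6 and 8, the highest with no filter, when MRAP was also tested. With a mean of at least 1 TPM required, MC2R and PDE8B were not tested, so those counts leave them out. GNAS for CJ28 against VEH moved to 0.0032 (log2) with median-of-ratios scaling and was not called with no filter, with TPM without the 5 structural RNAs or with only the groups compared either. For CJ28 against MET, GNAS turned to 0.0335 with scaling and to 0.0396 without the 5 RNAs. For MET against VEH, scaling turned PDE8A to 0.0129 and PRKAR1A to 0.0008, and leaving out single samples gave -0.078 to 0.0418 for PDE8A, -0.1311 to 0.008 for PRKACA, -0.015 to 0.0503 for PRKAR2B, -0.4304 to 0.5433 for the ratio of regulatory to catalytic TPM and -1.4028 to 0.4796 percentage points for the PRKACA share, none of them called. The number of the 6 shares and ratios that passed ranged from 0 to 5, 0 to 1 and 0 to 5 for the 3 comparisons when a sample was left out, with all passes in the run without VEH-2. For CJ28 against MET, which holds no VEH sample, they came only through the adjustment over all 18 tests. Of the counts per list, 46 values moved by over 1.5 times.

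The replicate numbers showed no pairing by the correlation of deviations between samples. Between samples of the same number it averaged 0.024 for CJ28 and VEH, -0.024 for MET and VEH and -0.048 for CJ28 and MET, and none was over 0.1. Single genes can still share a pattern. VEH-3, CJ28-3 and MET-3 were each the lowest of their group for GNAS (148, 140 and 154 TPM) and for PRKACA (6.70, 4.19 and 6.74 TPM). A link of these values to the replicate number was not tested. With the replicate number as a block 7, 0 and 7 of the 9 genes were called in the 3 comparisons and 0 of the shares, whose smallest possible p is then 0.125. The study reports the number of reads of each library, but TPM gives no counts per gene. No limit of detection was set for MC2R, MRAP or PDE8B, the genes with the lowest values.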
